A study of Mus musculus with 4 samples.

Results

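The response of wild-type macrophages to lipopolysaccharide (LPS) was read from 2 of the 4 RNA-seq libraries of the series, 1 of untreated cells (WT NT) and 1 of cells kept with LPS for 2 h (WT LPS). A gene entered where at least 1 of these libraries held 50 expected counts, the estimated number of its reads. That left 8953 genes of the 15935 listed in any of the 4 libraries. Both libraries came from macrophages grown over 5 days from femur and tibia marrow of adult C57BL/6 mice. The DMEM held conditioned medium with M-CSF, which directs marrow cells to become macrophages. The other libraries, used here only for values set side by side, came from mice with floxed Ezh2 (ezh2f/f) and Cre recombinase under the lysozyme M promoter, which is active in myeloid cells. They were likewise untreated (KO NT) or given LPS over 2 h (KO LPS). The sources used here do not give the number of mice, their sex, the dose and source of LPS, or whether untreated and stimulated cells came from 1 culture. As every group is a single library, the differences are sizes without a replicate check, and none was tested.

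LPS is the outer membrane glycolipid of Gram-negative bacteria. The plasma protein LBP and the surface protein CD14 pass it to the receptor complex of TLR4 and MD-2 (Ly96), which signals from the cell surface through the adaptors TIRAP and MyD88 and from endosomes through TRAM (Ticam2) and TRIF (Ticam1). The MyD88 arm activates the NF-kB and MAP kinase pathways and with them early cytokine genes. The TRIF arm also activates IRF3 and induces interferon beta, which acts back on the cell through its own receptor, JAK kinases and STAT factors.

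Depth was alike, at 5678451 summed expected counts in WT NT and 5635004 in WT LPS, and 5668826 and 5237782 in the KO libraries. The cells carried the markers of macrophages. Of 20 macrophage markers 18 were measured, and their list summed to 11918 FPKM (fragments scaled for transcript length and library size) without LPS and 11192 with it, led by Ctss, C1qb, Cd68 and Mpeg1. Cx3cr1 stayed at 0.66 and 0.77 FPKM and Lyz2 at 11.6 and 18.8. Neutrophil and precursor genes summed to 441 and 482 FPKM over 18 genes, most of it S100a9 (156 and 183) and S100a8 (122 and 127), with Elane at 1.18 and 1.58 and Stfa1 at 0 in both. The 9 measured genes of that list had a median log2 fold of 0.13 and none was at least 2-fold apart. Their part in any result was not tested. B cell markers summed to 1.81 and 1.13 FPKM, mast cell, basophil and eosinophil markers to 3.12 and 2.87, dendritic cell markers to 6.89 and 6.63, T and NK cell markers to 13 and 9.46 (Cd4 and Cd247 made up most of it) and fibroblast markers to 13.7 and 13.9. Erythroid and platelet markers summed to 52.5 and 64.5 FPKM, of which Pf4, a chemokine gene, gave 50.9 and 62.7, with Klf1 at 0 in both. Of all these lists, Klrb1c and Cd209a were at 0 in both libraries, and Cd3e, Cd3g, Gzma, Trac, Ighm, Igkc, Mcpt4 and Tpsb2 were listed in no library. Ezh2 itself stood at 2.84 and 2.52 FPKM in the WT libraries and at 2.06 and 1.29 in the KO libraries.

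The stretches directly before the transcription starts of 6 genes are shown because these genes mark the range of the response: chemokine, cytokine, feedback and interferon-induced genes that were much higher with LPS, and a lineage factor that was much lower. They are RefSeq sequence of GRCm38.p6, written 5′ to 3′ on the strand of the gene. Capitals mark a match, on either strand, to the kB motif (GGG, any 2 bases, TT, any base, CC), the kind of site that NF-kB binds, or to the interferon element (GAAA, any 2 bases, GAAA), which IRF and STAT complexes bind. Cxcl2 (chr5:90903649-90903898, plus strand) and Cxcl10 (chr5:92348890-92349139, minus strand) encode chemokines, Il6 (chr5:30012864-30013113, plus) a cytokine, Nfkbia (chr12:55492648-55492897, minus) the inhibitor IkB alpha, Rsad2 (chr12:26456453-26456702, minus) the antiviral enzyme viperin and Cebpa (chr7:35119043-35119292, plus) the myeloid factor C/EBP alpha.
Cxcl2: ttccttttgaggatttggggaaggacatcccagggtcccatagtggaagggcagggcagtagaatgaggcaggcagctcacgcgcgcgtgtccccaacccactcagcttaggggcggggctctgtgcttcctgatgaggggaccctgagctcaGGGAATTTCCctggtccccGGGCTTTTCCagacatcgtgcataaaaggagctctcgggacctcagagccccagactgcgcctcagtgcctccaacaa
Cxcl10: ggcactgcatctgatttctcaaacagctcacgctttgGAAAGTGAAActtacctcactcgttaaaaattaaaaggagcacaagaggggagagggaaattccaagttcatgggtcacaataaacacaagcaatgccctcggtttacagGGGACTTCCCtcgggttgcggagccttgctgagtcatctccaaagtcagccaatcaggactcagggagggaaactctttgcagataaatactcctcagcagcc
Il6: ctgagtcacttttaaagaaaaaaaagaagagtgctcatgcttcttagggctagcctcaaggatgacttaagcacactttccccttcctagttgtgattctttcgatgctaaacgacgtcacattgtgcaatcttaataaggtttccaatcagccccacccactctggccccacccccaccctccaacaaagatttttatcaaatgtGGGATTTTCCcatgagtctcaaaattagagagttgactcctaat
Nfkbia: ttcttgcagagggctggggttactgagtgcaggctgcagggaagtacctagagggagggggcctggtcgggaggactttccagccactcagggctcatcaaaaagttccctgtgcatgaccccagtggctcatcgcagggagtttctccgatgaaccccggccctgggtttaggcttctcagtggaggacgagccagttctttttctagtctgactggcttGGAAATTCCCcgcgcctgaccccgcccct
Rsad2: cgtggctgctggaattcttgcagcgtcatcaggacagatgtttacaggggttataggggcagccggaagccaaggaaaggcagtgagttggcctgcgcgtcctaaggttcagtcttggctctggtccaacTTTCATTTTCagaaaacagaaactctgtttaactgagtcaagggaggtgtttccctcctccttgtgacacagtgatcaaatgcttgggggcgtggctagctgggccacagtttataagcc
Cebpa: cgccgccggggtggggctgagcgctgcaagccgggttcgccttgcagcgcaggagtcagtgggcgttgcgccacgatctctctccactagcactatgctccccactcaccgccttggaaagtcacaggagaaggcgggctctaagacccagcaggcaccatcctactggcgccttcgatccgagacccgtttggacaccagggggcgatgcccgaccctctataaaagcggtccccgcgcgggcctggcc
Counted from the start, Cxcl2 had kB matches at -97 and -78, Il6 at -44, Nfkbia at -29 on the other strand, and Cxcl10 a kB match at -103 and an interferon element at -213. Rsad2 had an interferon element on the other strand at -120, and the Cebpa stretch held neither motif. Cebpa, at 66.4% GC, also had 22 CpG dinucleotides, against 3 in Il6 at 42.8% GC and 5 in Cxcl10 at 48%. Their levels from WT NT to WT LPS were 4.24 and 3504 FPKM for Cxcl2, 14.7 and 3472 for Cxcl10, 0.17 and 132 for Il6, 33.6 and 791 for Nfkbia, 97.7 and 1544 for Rsad2, and 34.5 and 2.35 for Cebpa. A match is a description of the letters, not evidence that a factor was bound.

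Folds are log2 of (FPKM + 1) in WT LPS over (FPKM + 1) in WT NT, a scale that understates the change of low genes, and a gene at least 2-fold apart on it is counted as higher or lower. Of the 8953 genes, 578 (6.46%) were higher and 1486 (16.6%) lower. On this scale 281 higher and 112 lower genes passed 4-fold, 137 and 13 passed 8-fold, 70 and 1 passed 16-fold, and 36 and 0 passed 32-fold. The added 1 FPKM limits how far a gene of low level can fall, so that Bmf and Rhov, whose ratios of FPKM are given below, do not count there. The 5 genes past 256-fold were Il1b, Cxcl1, Cxcl2, Socs3 and Il1a. The median gene stood at -0.46. Since FPKM divides by the library's total, gains in some genes lower the rest, and in bulk RNA fewer cells and less RNA per cell cannot be told apart. Rescaling by the median ratio (0.751 over 7380 genes, or -0.41 on the log2 scale) gave 808 higher and 713 lower, so that 53.1% of the calls were higher in place of 28.0%. A shift of this size cannot turn the sign of a gene past 2-fold, but it can bring a gene called lower inside 2-fold. Among genes named below, examples by scaled log2 fold are Vegfa (-0.84), Rgs2 (-0.96), Keap1 (-0.96), Bid (-0.95), Socs6 (-0.80), Pparg (-0.66) and Tnfsf12 (-0.64). A fold between -0.41 and 0 can change sign with the shift, and such folds are given below as values only.

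The higher genes took a large part of the library. Their 578 members held 3.82% of the counts in WT NT and 22.1% in WT LPS, and the 20 with most counts in WT LPS held 0.659% and 7.26%. The lower genes went from 8.76% to 3.0% and the 6889 genes between from 86.3% to 74.1%. The median level of the higher genes was 8.77 FPKM without LPS and 49.3 with it, and of the lower genes 10 and 3.29. The limit of 50 counts matters for both sides. Of the higher genes 160 had fewer than 50 counts in WT NT, 14 of them not being listed there, and had to differ in order to enter. Of the lower genes 700 had fewer than 50 in WT LPS, and 2 (Gm7367 and Bmf) were not listed there. Genes at the limit, with exactly 50 counts in the richer library, had folds such as -0.22 (Fggy) and -0.61 (Wdr53), and genes just under it such as -0.22 (Prps1), 0.60 (Apol9b) and -1.03 (Xndc1). For single genes the ratio of FPKM is given with an exact 95% Clopper-Pearson interval from the counts. These intervals, and floors of 3 counts per library used where a gene was not listed, cover counting error only. Folds given below as at least a value rest on this floor, and they can lie beyond the near end of the 95% interval. For Ifnb1 the floor gives 250-fold, while the interval begins at 203. By these intervals 1332 genes (14.9%) lay above 1 and 5890 (65.8%) below 1. The median ratio of genes with 50 counts in both libraries was 0.751, so a gene at that median with enough counts also lies below 1. These shares are therefore not counts of genes that responded to LPS.

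**Figure D1:**
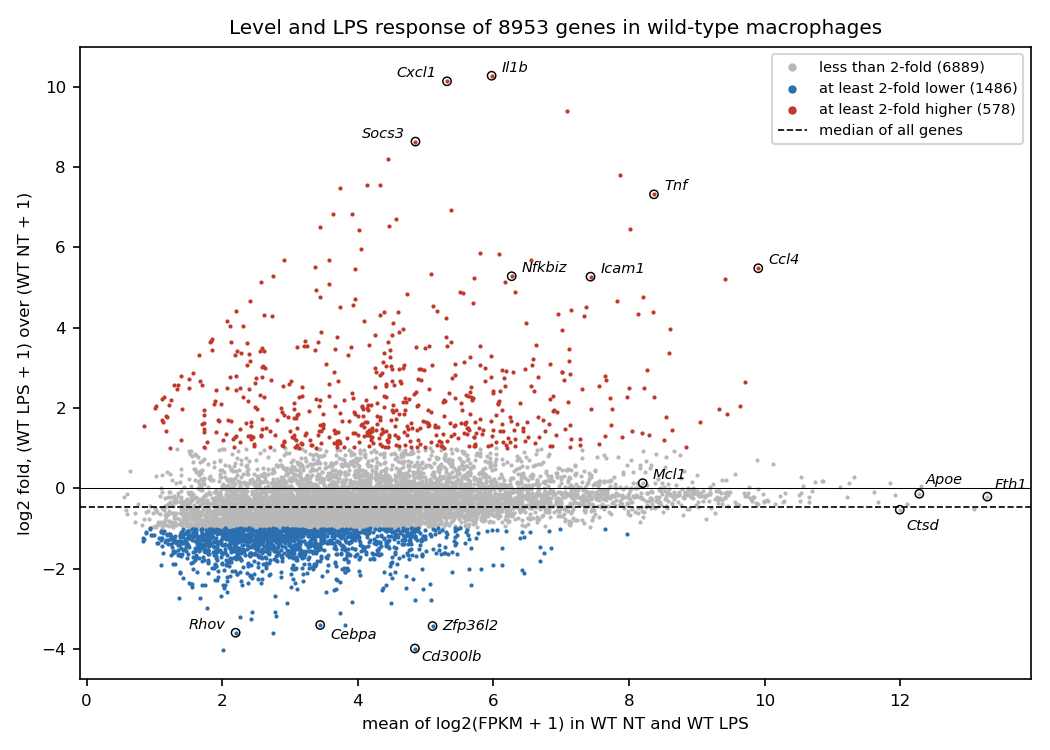
Each point is 1 of 8953 genes, with its mean log2(FPKM + 1) over WT NT and WT LPS on the x axis and its log2 fold with LPS on the y axis, coloured by the 2-fold rule. Il1b and Cxcl1 lie above 10 while no gene lies below -4.03, and the dashed line marks the median gene at -0.46.

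The receptor itself was lower while parts of the machinery below it were higher. Tlr4 (chromosome 4, 66827551 to 66846581 in GRCm38.p6) stood at 33.0 FPKM in WT NT and 9.89 in WT LPS, a ratio of 0.300 (0.269 to 0.334). Cd14, which hands LPS to the receptor, stood at 323 and 1263 FPKM, a ratio of 3.91 (3.76 to 4.07), and Ly96 at 21.4 and 21.9. Of 22 measured genes of the receptor, its adaptors and proximal kinases, 6 were higher and 2 lower, at a median of 0.01. Ripk2, a kinase that serves the NOD receptors, was highest by fold, from 9.64 to 144 FPKM (ratio 14.9, 12.2 to 18.3). Peli1, a ubiquitin ligase for IRAK kinases, went from 18.8 to 194 FPKM and Irak2 from 18.9 to 93.8. Myd88 went from 58.0 to 141 FPKM, and Irak3, an inhibitory member of the IRAK family, from 8.33 to 21.1. Tab1, a partner of the kinase TAK1, was the lowest, from 8.79 to 1.52 FPKM on 151 and 26 counts.

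The other Toll-like receptors differed in direction. Tlr2, which senses bacterial lipoproteins at the surface, stood at 27.7 and 340 FPKM, a ratio of 12.3 (11.2 to 13.5). The nucleic acid receptors Tlr9, Tlr13 and Tlr8 were lower, with ratios of 0.339 (0.289 to 0.396), 0.423 (0.396 to 0.452) and 0.463 (0.422 to 0.507). Tlr2 was the only higher gene among the 11 measured of this list, these 3 were its lower genes, and its median was -0.15. With median-ratio scaling the median was 0.26, with 3 higher and 1 lower. The log2 folds of Tlr9, Tlr13 and Tlr8 were then -1.10, -0.82 and -0.68, so that only Tlr9 stayed past 2-fold.

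Genes of the NF-kB system were higher across most of the list. NF-kB is a family of dimeric transcription factors held in the cytoplasm by IkB proteins until IkB kinases mark these for breakdown. Of 16 measured genes 12 were higher and 0 lower, at a median of 2.25, and all 12 had at least 50 counts without LPS. Among the subunits Rel went from 7.55 to 97.5 FPKM, Nfkb2 from 24.1 to 193, Nfkb1 from 28.9 to 173 and Rela from 42.1 to 115. The IkB genes varied more widely. Nfkbiz, a nuclear IkB protein needed for some secondary genes, went from 11.4 to 480 FPKM, a ratio of 42.1 (37.0 to 48.1), and Nfkbie from 10.8 to 145. Bcl3 went from 8.96 to 60.6 FPKM, Nfkbib from 20.6 to 107 and Nfkbid from 9.39 to 41.5. Of the kinase genes Ikbke was higher, from 37.5 to 104 FPKM. Ikbkg at 9.95 and 4.99, Chuk at 18.6 and 19.2 and Ikbkb at 26.4 and 32.6 were not 2-fold apart.

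Ubiquitin-editing and TRAF genes, which limit or shape this signal, gave 8 higher and 0 lower of 16, at a median of 1.15. Tnfaip3, the deubiquitinase A20, had a ratio of 55.4 (49.5 to 62.2). Traf1 went from 6.13 to 165 FPKM, Birc3 from 15.2 to 108 and Tnip1, a partner of A20, from 37.9 to 228. The linear ubiquitin ligase genes Rbck1 (37.8 and 21.5 FPKM) and Sharpin (29.0 and 18.5) were not 2-fold apart.

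Most MAP kinase cascade genes were not 2-fold apart. Of 20 measured genes of the cascade 4 were higher and 2 lower, against 6.46% and 16.6% of all genes, at a median of 0.05. With median-ratio scaling 6 were higher and 1, Map3k1, lower. Gadd45b went from 18.3 to 161 FPKM, Mapkapk2, which stabilises cytokine mRNA, from 108 to 426, and Map3k8, the kinase that activates ERK after LPS, from 12.1 to 49.9. Map3k1 was lower, from 17.9 to 2.72 FPKM, and so was Map3k14, from 6.78 to 2.32. The phosphatases that switch MAP kinases off diverged. Dusp2 had 7 counts without LPS and 1364 with it, 0.76 and 149 FPKM, and Dusp1 went from 30.8 to 247 FPKM. Dusp6, which acts on ERK, went the other way, from 16.5 to 1.70 FPKM on 264 and 27 counts, and Dusp7 from 25.4 to 11.2. In all 4 of 9 phosphatase genes were higher, Dusp2 and Dusp5 with fewer than 50 counts without LPS, and 2 lower. The shares of all genes were 6.46% and 16.6%. With median-ratio scaling 5 phosphatase genes were higher and 1, Dusp6, lower, with Dusp7 at a log2 fold of -0.73.

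AP-1 genes were mixed in direction, and most other immediate early genes were higher. AP-1 factors are dimers of JUN, FOS, ATF and MAF proteins, many of them encoded by genes that answer within minutes. Of 20 measured, 8 were higher and 3 lower, at a median of -0.31, or 0.09 with median-ratio scaling. Maff went from 1.34 to 102 FPKM (15 and 1129 counts), Jdp2 from 6.83 to 164 and Junb from 46.6 to 352. Fos stood at 39.9 and 11.5 FPKM and Jun at 45.5 and 14.2. Of 13 measured Egr, Nr4a, Ier and Btg genes 9 were higher and 1 lower, at a median of 1.69, 4 of the 9 with fewer than 50 counts without LPS. Csrnp1 went from 3.52 to 89.0 FPKM and Ier3 from 5.75 to 72.0, while Rgs2, an inhibitor of G protein signals, went from 75.9 to 29.0. Among Kruppel-like factors Klf6 went from 122 to 368 FPKM and Klf7 from 3.84 to 21.5, and Klf10 from 11.4 to 2.95.

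Myeloid lineage factors divided sharply. Cebpa, needed to form the granulocyte and macrophage line, stood at 517 counts without LPS and 35 with it, a ratio of 0.0682 (0.0470 to 0.0961). Lyl1 went from 44.9 to 3.33 FPKM, Hhex from 29.5 to 4.33, Tfeb, a regulator of lysosome genes, from 27.5 to 4.89 and Fli1 from 27 to 4.82. Bhlhe41 was the sixth lower gene, from 22.7 to 4.19 FPKM. The related C/EBP genes were higher, Cebpd from 6.62 to 54.7 FPKM and Cebpb from 28.5 to 75.0. Tfec, a relative of Tfeb, went from 15 to 140 FPKM and Id3 from 1.12 to 16.4. Spi1, which encodes PU.1, stood at 259 and 346 FPKM. Of 24 measured genes 5 were higher and 6 lower, at a median of 0.03.

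FoxO and clock genes had more lower than higher members, as had all genes together (16.6% and 6.46%). FoxO factors are active when growth factor signalling is weak. Of 15 FoxO factors and responsive genes 7 were lower and 3 higher, at a median of -0.92, or -0.53 with 5 lower and 3 higher with median-ratio scaling, and 4 of the 7 had fewer than 50 counts with LPS. Sesn1 went from 38.3 to 3.55 FPKM, Txnip, which restrains glucose uptake, from 116 to 21.2, Tsc22d3, the glucocorticoid-induced leucine zipper gene, from 29.4 to 4.23 and Foxo3 itself from 9.78 to 1.16. Cited2 (45.3 to 416 FPKM) and Ccng2 (8.05 to 70.7) were the highest of the list. Of 11 clock genes 4 were lower and 1 higher, at a median of -0.70. Nfil3, a repressor of the D-box clock elements, went from 3.41 to 49.5 FPKM, and the D-box activators Dbp and Tef from 5.91 to 1.06 and from 16.7 to 4.80. In the Myc network Mycl had 2 counts without LPS and 121 with it, Mnt went from 18.0 to 2.45 FPKM, and Myc stood at 5.94 and 6.79.

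**Figure D2:**
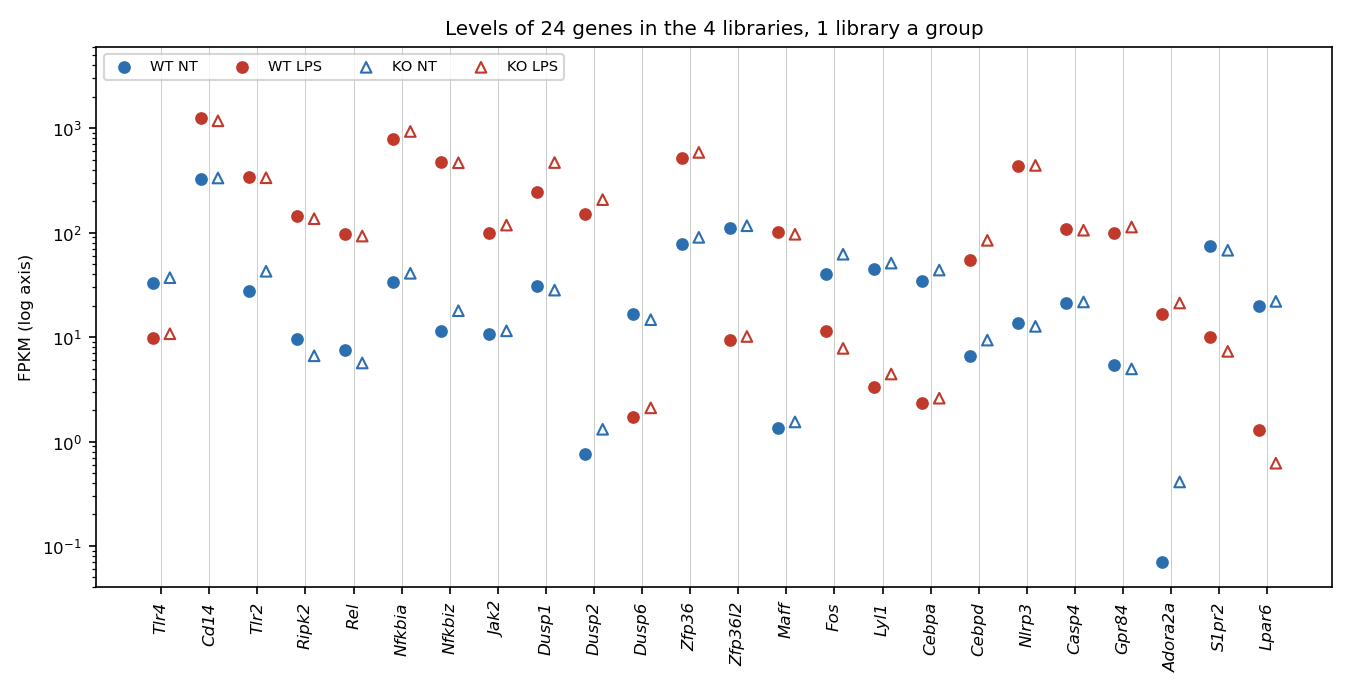
FPKM on a log axis of 24 genes of signalling and transcription in the 4 libraries, WT as filled circles and KO as open triangles, without LPS in blue and with LPS in red. Tlr4, Dusp6, Zfp36l2, Fos, Lyl1, Cebpa, S1pr2 and Lpar6 have the red symbols below the blue ones, and the other 16 genes have them above.

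Some genes of feedback on cytokine receptors and on mRNA had large folds. SOCS proteins block JAK kinases after cytokine signals. Socs3 (7 and 8890 counts) and Socs1 (29 and 750) had ratios of 1274 (618 to 3170) and 25.8 (17.8 to 38.8), and Cish went from 1 count to 439. Socs6 was lower, from 18.0 to 7.42 FPKM. Among the kinases Jak2 went from 10.8 to 98.6 FPKM, while Stat2 stood at 96.8 and 62.5. Irf1 was the only interferon regulatory factor of 7 measured that was 2-fold apart, at 40.8 and 463 FPKM, and Irf7 stood at 407 and 371. Proteins that destroy AU-rich or stem-loop mRNA split within their own families. Zfp36 (tristetraprolin) went from 78.3 to 515 FPKM, but its paralog Zfp36l2 from 112 to 9.47, a ratio of 0.0847 (0.0726 to 0.0982). Zc3h12a (regnase) and Zc3h12c went from 9.88 to 84.6 and from 5.51 to 65.7 FPKM, and their relative Zc3h12d from 17.0 to 2.75. Of 18 measured decay genes 3 were higher and 3 lower, against 6.46% and 16.6% of all genes. With median-ratio scaling 3 were higher and 2 lower.

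Cytokine genes held the largest folds, and many started from almost no reads. Il1b had 6 counts without LPS and 16595 with it, a ratio of 2794 (1283 to 7615), and its neighbour Il1a 3 and 4101. Il1rn, the natural antagonist of both, already stood at 50.9 FPKM and reached 374. Tnf had 235 and 38660 counts, the latter at 4172 FPKM. Other TNF family ligands were higher as well, Tnfsf9 (4-1BB ligand) from 2.76 to 458 FPKM and Tnfsf15 from 0.38 to 26.4, whereas Tnfsf12 (TWEAK) stood at 89.3 and 42.7. Of 7 measured ligands 5 were higher and 1 lower, and 3 of the 5 had fewer than 50 counts without LPS.

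Among the other cytokines and growth factors 17 of 26 were higher and 2 lower, at a median of 2.69, and 13 of the 17 had fewer than 50 counts without LPS. The median was 2.68 with 3 counts in place of 0. The IL-12 family subunits measured in this list, which do not include Il12a, were all higher. Il12b went from 4 to 3389 counts, Il27 from 5 to 804 and Ebi3 from 45.9 to 141 FPKM. Il23a, which was not listed without LPS, reached 8.97 FPKM, at least 22.8-fold higher. Il10, the main anti-inflammatory cytokine, went from 5.32 to 92.9 FPKM. Growth factors included Csf1 (5.06 to 84.1 FPKM), Csf2, not listed without LPS and at 67 counts with it (at least 22.5-fold higher), Edn1 (0.66 to 84.6), Gdf15 (26.6 to 558) and Clcf1 (at least 58.8-fold higher). Vegfa, at 9.19 and 3.52 FPKM, and Il16, at 2.76 and 0.60, were lower. Ifnb1 reached 744 counts in WT LPS and was not listed in WT NT.

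Most measured chemokine genes were higher. Of 10 measured genes in the list of CC and CX3C chemokines, which also holds the receptor gene Ccrl2, 9 were higher, at a median of 4.20, and of 8 CXC genes 6, at 5.22. Without LPS 2 of the 9 and 5 of the 6 had fewer than 50 counts. Ccl4 reached 6405 FPKM from 143 and Ccl3 4185 from 111. These genes overlap on chromosome 11 in the annotation, and the strand setting of the counting is not given, so reads between them may be shared. Ccl2 went from 70.0 to 1496 FPKM, a ratio of 21.4 (19.1 to 24), Ccl7 from 35.4 to 712 and Ccl5 from 337 to 2097. Ccrl2, a receptor that presents chemerin, had a ratio of 66.3 (52.4 to 85.2). Cxcl1 went from 1 count to 7088. Cxcl3, with fractional counts that show reads shared with close copies, went from 0.42 to 160 FPKM, and Cxcl9, an interferon gamma target, from 1.29 to 14.7. Ccl6 (83.2 and 66.4 FPKM), Pf4 (50.9 and 62.7) and Cxcl16 (71.2 and 138) were not 2-fold apart. On the receptor side Fpr2 went from 2.98 to 32.8 FPKM and Fpr1 from 1.24 to 9.83, while Cxcr4 went from 48.1 to 9.48.

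Receptors for the induced cytokines moved in both directions. Cd40 went from 7.55 to 321 FPKM, Tnfrsf1b (TNF receptor 2) from 114 to 553, Il17ra from 4.42 to 25.4 and Il15ra from 2.99 to 13.1. Of 25 measured cytokine and growth factor receptor genes 4 were higher and 3 lower, against 6.46% and 16.6% of all genes. Both chains of the IL-6 receptor were lower. Il6st went from 44.6 to 13.2 FPKM, a ratio of 0.295 (0.264 to 0.330), and Il6ra from 22.9 to 8.41, a ratio of 0.368 (0.305 to 0.441). With median-ratio scaling their log2 folds were -1.30 and -0.97, so that only Il6st stayed past 2-fold. Mertk, which takes up dying cells, went from 21.7 to 7.32 FPKM. The M-CSF receptor Csf1r stood at 704 and 572.

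Some higher genes lay side by side. Of 575 higher genes with a next measured gene on the same chromosome, 98 (17%) had a higher gene there, against 6.46% of all genes. For lower genes it was 337 of 1482 (22.7%) against 16.6%. In 18 places 3 or more neighbouring measured genes in a row were higher. On chromosome 5 these were Cxcl3, Cxcl1, Cxcl2 and Areg (90786101 to 91148432) and Cxcl9, Cxcl10, Cxcl11 and Nup54 (92321331 to 92435259), with folds of 3.65 to 10.13 and 1.91 to 7.79. On chromosome 2 the antisense or overlapping transcript Gm14023 preceded Il1a and Il1b, and on chromosome 3 Gbp5, Gbp7, Gbp3 and Gbp2 were followed by Gtf2b, a general transcription factor gene at 32.1 and 91.9 FPKM. Gene copies that share reads, such as Gbp, Ifit, H2-Q and Bcl2a1, add to these counts, and their folds are uncertain.

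Interferon-stimulated genes were already expressed without LPS and differed less. These genes encode antiviral proteins and are switched on through STAT and IRF factors. Of 38 measured, 12 were higher and 0 lower, at a median of 0.52, or 0.93 with median-ratio scaling, and none of the 12 had fewer than 50 counts without LPS. Rsad2 had the largest fold, a ratio of 15.8 (15.1 to 16.5). Mx2 went from 15.4 to 189 FPKM, Cmpk2, the neighbour of Rsad2, from 75.4 to 526, Oasl1 from 50.6 to 333, and the RNA sensor Ifih1 (MDA5) from 28.7 to 157. Others had close values in both libraries, with Oas2 at 56.5 and 55.5 FPKM, Bst2 at 616 and 558 and Ifitm3 at 1489 and 1541.

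Guanylate-binding proteins and immunity-related GTPases, which act on microbes inside the cell, gave 10 higher of 15 and 0 lower, at a median of 1.14. Gbp5, which promotes NLRP3 activity, went from 7.37 to 247 FPKM and stood apart from Gbp2 (52.3 to 262) and Gbp3 (21.0 to 115). Of 15 genes of nucleic acid sensing and the p200 family 5 were higher, led by Ifi205 (11.2 to 427 FPKM), and 1 lower, the adaptor Mavs (13.7 to 3.68 FPKM, on 230 and 64 counts).

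Among inflammasome genes the sensor had the largest fold. Nlrp3 went from 13.7 to 432 FPKM, a ratio of 31.7 (28.3 to 35.6). Mefv (pyrin) went from 1.81 to 31.6 FPKM, Nod2 from 2.12 to 33.1 and Casp4, whose product binds LPS in the cytosol, from 21.2 to 109. The adaptor Pycard (21.3 and 14.3 FPKM), Casp1 (61.5 and 93.0) and Gsdmd (70.4 and 84.3) were not 2-fold apart. In all 5 of 19 were higher and 1 lower, Nlrx1 from 4.13 to 0.95 FPKM. In the BCL-2 family the antiapoptotic copies Bcl2a1b (44.3 to 1142 FPKM), Bcl2a1d (7.97 to 511) and Bcl2a1a (1.09 to 129) were higher, with fractional counts that show shared reads. Bcl2l11, which encodes the killer protein BIM, went from 31.4 to 137 FPKM. Bmf, of the same BH3-only class, had 149 counts without LPS and was not listed with it, at least 49.3-fold lower, and Bid went from 37.2 to 14.1 FPKM. Mcl1 stood at 281 and 307.

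Of 15 genes of arginine, nitric oxide, itaconate and tryptophan metabolism 7 were higher and 0 lower, at a median of 0.92, and 4 of the 7 had fewer than 50 counts without LPS. Acod1, which makes itaconate, had 394 and 35426 counts, a ratio of 90.6 (82.0 to 100). Ptgs2 had 12 and 6918 counts, while the constitutive Ptgs1 stood at 3.59 and 1.90 FPKM, and of 14 prostaglandin and leukotriene genes 3 were higher and 0 lower. Nos2 had a ratio of 56.9 (32.4 to 111), and its arginine transporter Slc7a2 went from 0.66 to 10.4 FPKM. Sod2, the mitochondrial superoxide dismutase, went from 26.4 to 183 FPKM, while Ncf1 (121 and 133) and Ncf4 (86.0 and 102) of the NADPH oxidase were not 2-fold apart. Il4i1 was not listed without LPS and had 236 counts with it, at least 79.3-fold higher. Ch25h, the cholesterol 25-hydroxylase, went from 1.04 to 68.7 FPKM and Sqstm1, the autophagy receptor p62, from 390 to 1623, while its partner Keap1 went from 33.0 to 12.4. Ppp1r15a, which restarts translation after stress, went from 8.03 to 170 FPKM.

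Core metabolism was close to the median gene. None of 24 citric acid cycle genes, 32 oxidative phosphorylation subunits and 35 cytosolic ribosomal protein genes was 2-fold apart, at medians of -0.37, -0.26 and -0.14, or 0.03, 0.14 and 0.27 with median-ratio scaling. Glycolysis and hypoxia-responsive genes had a median of -0.29, with the glucose transporters Slc2a6 (25.6 to 199 FPKM) and Slc2a1 (12.1 to 42.1) higher and Pfkfb4 (15.9 to 3.19) lower. Of 35 lysosomal genes 1 was higher, the protease gene Ctsc (51.9 to 244 FPKM), and 0 lower, at a median of -0.39. Of 29 genes of sterol and fatty acid synthesis 2 were lower, Scd2 (61.1 to 14.3 FPKM) and Fads1 (33.7 to 15). In lipid efflux Abcg1 went from 44.7 to 11.5 FPKM, Rxra from 16.1 to 5.56 and Pparg from 36.8 to 17.2. In antigen presentation none of 18 class I genes was 2-fold apart, with B2m at 4973 and 5139 FPKM. Of 10 class II genes 0 were higher and 2 lower, against 6.46% and 16.6% of all genes, while Cd74 stood at 643 and 746 FPKM. The 2 were Rfxap (8.30 to 2.03 FPKM) and Rfxank (10.7 to 4.77), which encode subunits of the RFX factor of class II promoters. With median-ratio scaling 1 gene was higher and 1, Rfxap, lower, with Rfxank at a log2 fold of -0.67.

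**Figure D3:**
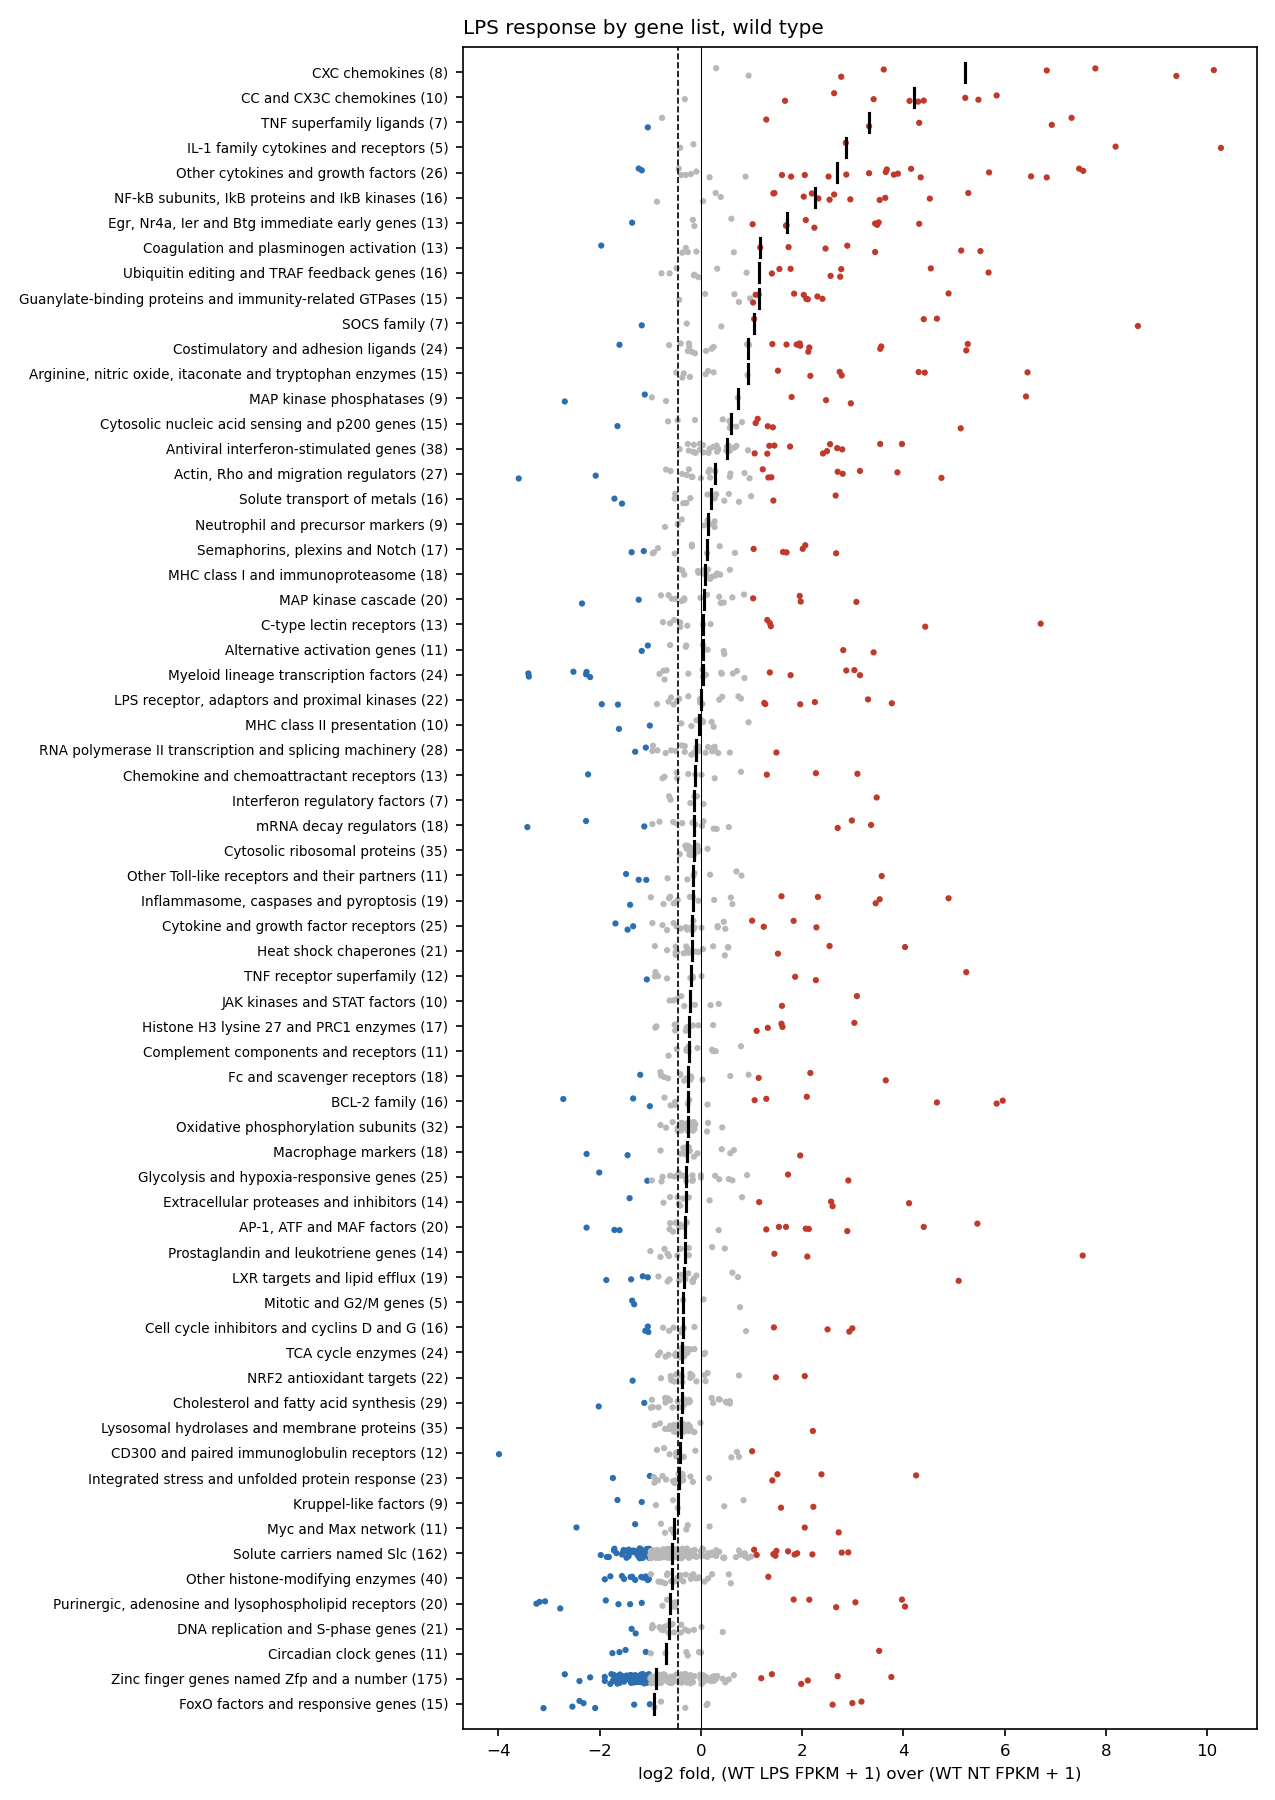
Each row is a gene list with at least 5 measured members (number in brackets), each point a member's log2 fold with LPS in WT (red at least 2-fold higher, blue at least 2-fold lower, grey between), and the black bar the list's median. The lists run from FoxO genes at -0.92 to CXC chemokines at 5.22, the dashed line marks the median of all genes at -0.46, and most lists hold members on both sides.

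Surface proteins for contact with other cells were higher in many cases. Icam1, the ligand of the integrin LFA-1, went from 26.9 to 1072 FPKM, a ratio of 39.9 (36.1 to 44.3). Icosl went from 4.22 to 60.5 FPKM, Vcam1 from 1.70 to 30.4 and Cd274 (PD-L1) from 39.2 to 174. Cd80 and Cd86, the ligands of CD28, were at 2.91 and 11.6 and at 17.5 and 33.8. Cd200r1, an inhibitory receptor, went from 67.0 to 21.3 FPKM. In all 11 of 24 were higher and 1 lower, at a median of 0.93. Among lectins Clec4e (Mincle) went from 29.6 to 657 FPKM and Cd69 from 12 to 2188 counts, while Clec7a stood at 66.6 and 45.9. Cd300lb, an activating immunoglobulin-like receptor, was the lowest protein-coding gene of all, from 113 to 6.20 FPKM, a ratio of 0.0547 (0.0443 to 0.0669). Its relatives Cd300a (52.1 and 28.1), Cd300c2 (206 and 147) and Cd300ld (91.8 and 65.1) were not 2-fold apart, and reads shared among them leave these values uncertain.

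Receptors for nucleotides, adenosine and lysophospholipids were among the most divided groups. Of 20 measured 6 were higher and 8 lower, at a median of -0.62, or -0.27 with median-ratio scaling. Fewer than 50 counts were held without LPS by 4 of the higher and with LPS by 4 of the lower. The lysophosphatidic acid receptors Lpar6 (19.9 to 1.29 FPKM) and Lpar5 (14.7 to 0.86), the orphan receptor Gpr146 (15.5 to 0.74) and the sphingosine phosphate receptors S1pr2 (74.4 to 9.98) and S1pr1 (19.0 to 4.43) were lower. So was the ATP channel P2rx7, from 20.9 to 7.27. The adenosine receptor Adora2a had 1 count without LPS and 243 with it. Gpr84, a receptor for medium-chain fatty acids, went from 5.39 to 99.2 FPKM, Gpr132 from 6.42 to 60.6 and P2ry2 from 11.5 to 54.2.

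Clotting, matrix and motility genes included large folds in both directions. Serpinb2, an inhibitor of urokinase, was not listed without LPS and had 385 counts with it, at least 129-fold higher. Tissue factor (F3) went from 1 count to 114 and the urokinase receptor Plaur from 27.7 to 211 FPKM, while thrombomodulin (Thbd), which turns thrombin into an anticoagulant, went from 6.26 to 0.85. In all 7 of 13 were higher and 1 lower, and 5 of the 7 had fewer than 50 counts without LPS. Mmp13 went from 20.4 to 368 FPKM and Mmp14 from 7.69 to 51.5, and Mmp19 from 9.95 to 3.12. Marcksl1, an actin regulator, went from 56.2 to 1537 FPKM and Rnd1, a small GTPase, from 1.85 to 41.1, whereas the GTPase gene Rhov went from 140 counts to 3, a ratio of 0.0214 (0.00436 to 0.0638). Actb stood at 2329 and 2819 FPKM. The Notch ligand Jag1 went from 4.16 to 31.9 FPKM and Notch1 from 4.25 to 20.9.

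Lists of zinc finger, histone-modifying and solute carrier genes are read against 16.6% lower and 6.46% higher among all genes, or 7.96% and 9.02% with median-ratio scaling. Of 175 measured genes named Zfp and a number, 72 were lower and 6 higher, at a median of -0.89, or -0.59 with median-ratio scaling, which left 43 lower. Of the 72, 48 had fewer than 50 counts with LPS. The lowest were Zfp395 (9.08 to 0.56 FPKM) and Zfp710 (48.1 to 8.31). The 6 higher genes of that name were Zfp36, whose product binds RNA, Zfp972, Zfp263, Zfp800, Zfp131 and Zfp281. Of 40 histone-modifying and reader genes 13 were lower and 1, Tet2, higher, at a median of -0.57, or -0.22 with median-ratio scaling, which left 5 lower. Tet3 went from 18.7 to 4.29 FPKM, Ep300, the acetyltransferase p300, from 30.1 to 10.9, and Tet2 from 5.69 to 15.9. Among enzymes of H3 lysine 27 and PRC1 the order was different, with 5 higher and 0 lower of 17, led by the demethylase gene Kdm6b (42 and 612 counts). Of 162 genes named Slc 36 were lower and 11 higher, but with median-ratio scaling 15 and 19, near the shares of all genes. Lower genes outside these lists included Tnfaip8l2 (TIPE2, an inhibitor of Toll-like receptor signals), from 87.4 to 11.9 FPKM, Plekhm1, a lysosome fusion factor, from 59.5 to 7.38, and AI467606, from 22.6 to 0.93. Polr2a, the largest subunit of RNA polymerase II, stood at 69.9 and 32.2 FPKM.

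Cell cycle lists are likewise read against 16.6% lower and 6.46% higher among all genes. Of 21 replication genes 2 were lower, Cdt1 (31.2 to 11.4 FPKM) and E2f2 (2.59 to 0.47), and 0 higher, while Pcna stood at 491 and 494. With median-ratio scaling 1 replication gene was lower and 0 higher. Of 5 mitotic genes 2 were lower, both with fewer than 50 counts with LPS, and 0 higher, or 2 lower and 1 higher with median-ratio scaling. Of 16 inhibitors and D and G cyclins 4 were higher and 3 lower, at a median of -0.36, and with median-ratio scaling at 0.01 with 5 higher and 0 lower. The cell cycle inhibitor Cdkn1a (p21) went from 110 to 849 FPKM, a ratio of 7.70 (7.25 to 8.18), and Mdm2 from 64.8 to 177. The D cyclins differed among themselves, with Ccnd2 at 0.76 and 8.94 FPKM, Ccnd1 at 39.2 and 17.8 and Ccnd3 at 12.4 and 5.53.

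Of 119 measured long noncoding RNA genes 20 were higher and 10 lower, against 6.46% and 16.6% of all genes. Mir155hg, the host transcript of the microRNA miR-155, went from 1 count to 720. Gm12505 went from 4.33 to 213 FPKM and AW112010 from 8.73 to 112. Neat1, the scaffold of nuclear paraspeckles, was lower, from 285 to 140 FPKM. Where such a transcript overlaps another gene, its reads cannot be told from those of its partner without the strand.

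The promoters of the higher genes were poorer in CpG than those of other measured genes, though not than those of all genes with a listed promoter. Windows of 300 bases around the start were taken from the RefSeq table for the 5760 measured genes with 1 listed start. Of all 578 higher genes, 160 had fewer than 50 counts in WT NT and entered only through WT LPS. How many of them have a window here was not counted, and their part in these contrasts was not tested. The ratio of CpG observed to that expected from base composition had a median of 0.70 for the 358 higher genes, 0.51 for the 86 at least 8-fold higher, 0.81 for the 4450 between and 0.81 for the 952 lower. Over all windows of the RefSeq table the median was 0.37. A ratio under 0.4 was found in 28.8% of higher, 44.2% of at least 8-fold higher, 9.42% of between and 8.3% of lower genes, and in 52.1% of all 22862 windows of the table. The TATA motif TATAAA was present in 14%, 24.4%, 6.7% and 4.62% in the same order, against 14.8% of all windows.

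Matches to the kB, interferon and AP-1 motifs were more frequent in the higher genes than in other measured genes. A kB match lay in 10.9% of higher (39 of 358), 5.28% of between and 4.73% of lower genes (45 of 952), against 4.65% of all windows. An interferon element lay in 10.1% of higher (36 of 358), 3.33% of between and 1.37% of lower genes (13 of 952), against 3.58%. The AP-1 motif TGANTCA lay in 8.66%, 4.81% and 3.47%, against 7.98%. The GC box GGGCGG lay in 62.8%, 68.2% and 69.4%, against 35.2%, and the E-box CACGTG in 11.2%, 11.4% and 11.7%, against 7.12%. Both strands were searched, matches of different motifs may overlap, and genes in clusters share ancestry. About 9 in 10 of the higher genes therefore had no kB match in this window, from which nothing follows about NF-kB elsewhere. Higher genes that entered only through WT LPS are part of these shares too, and no test was made of them.

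**Figure D4:**
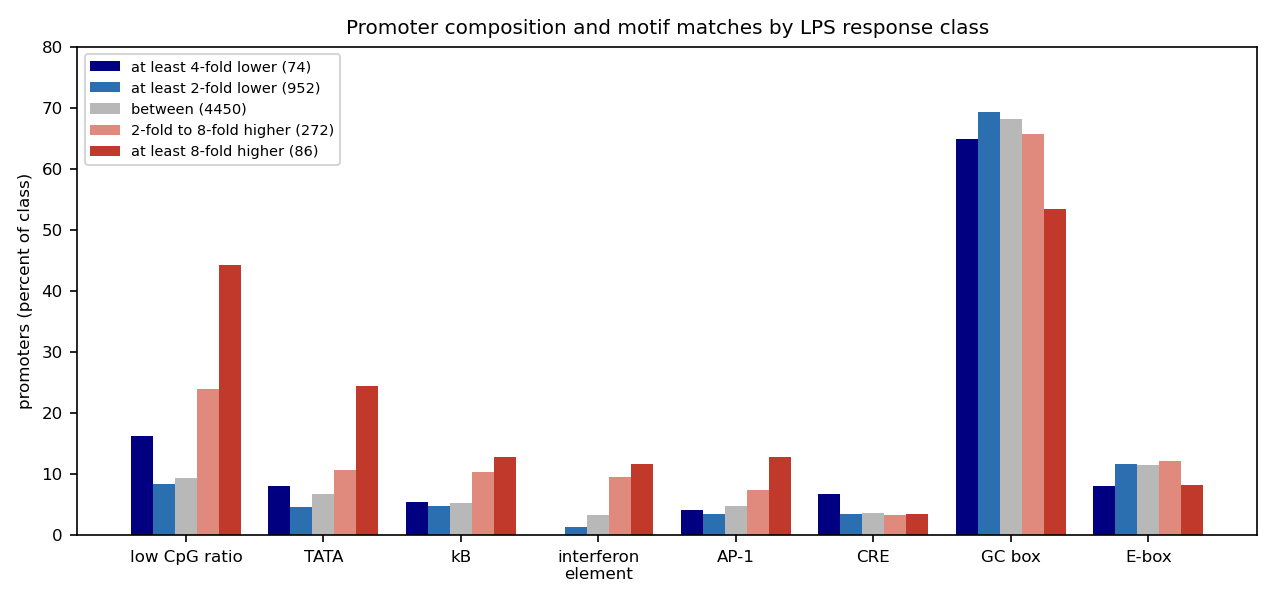
Bars from 0 show the percent of promoter windows with a CpG ratio under 0.4 or with a motif match, by size of the LPS response in WT (number of windows in brackets). Low CpG ratios reach 44.2% and TATA matches 24.4% among genes at least 8-fold higher, while GC boxes are at 53.5% there and at 68.2% in genes between.

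The KO pair, which shares no library with the WT pair, had similar numbers of calls. Of the same 8953 genes 584 (6.52%) were higher and 1253 (14%) lower in KO. Of the 578 genes higher in WT, 514 (88.9%) were higher in KO, and these were 88.0% of the KO calls. Of the 1486 lower, 987 (66.4%) were lower in KO, or 78.8% of the KO calls. The opposite sign in KO was seen for 2 higher and 2 lower genes. Folds close to each other were those of Socs3 (8.63 in WT and 8.60 in KO), Ptgs2 (7.54 and 7.56), Dusp2 (6.42 and 6.49) and Cebpa (-3.40 and -3.64). Values further apart were 7.47 and 4.35 for Ifnb1, 6.83 and 4.71 for Il6, 6.71 and 5.35 for Cd69, 4.40 and 6.11 for Ccl2, and 3.88 and 5.57 for Rnd1. With 1 library a group the difference of these folds has no replicate check. KO libraries differ in genotype, so this is not a replicate of the WT response.

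**Figure D5:**
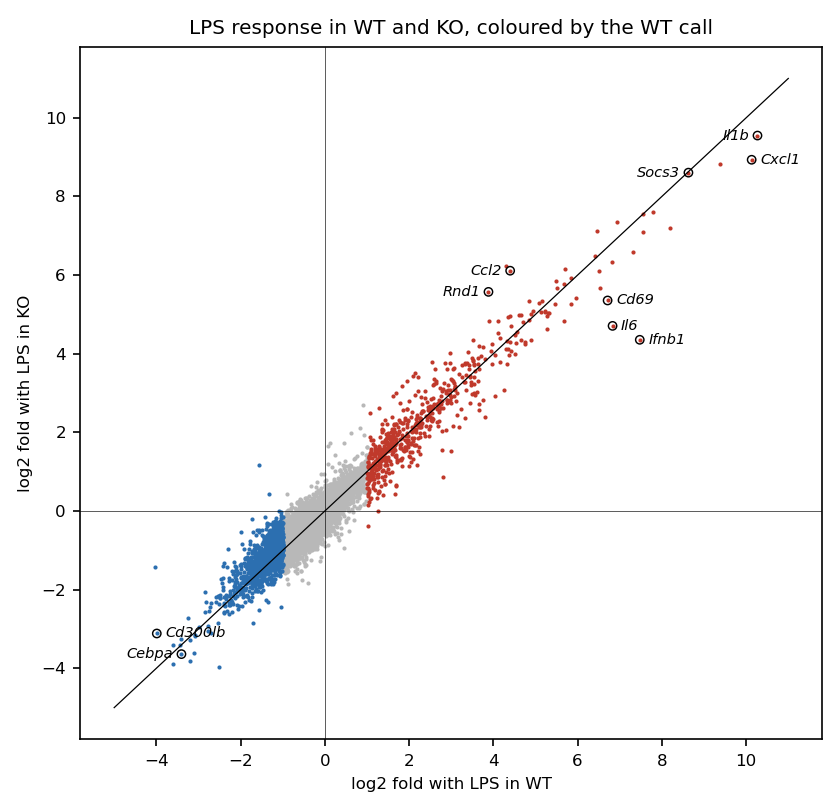
Log2 fold with LPS in WT (x axis) and in KO (y axis) for the same 8953 genes, coloured by the WT call, with the line of equal folds. Socs3 and Cebpa lie near the line at 8.63 and 8.60 and at -3.40 and -3.64, Ifnb1 and Il6 lie below it and Ccl2 and Rnd1 above it.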

How the data were processed

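Illumina HiSeq libraries of total RNA were assigned to groups by their titles. Bowtie, RSEM and mm10 are named in the submitters' processing notes. The annotation, strand setting and filters were not stated in the sources used here. Per the file headers, the deposited tables hold an expected count per gene, in which RSEM splits a read among the genes it fits, and the authors' FPKM. A gene missing from a table was set to 0. A RefSeq table of GRCm38.p6 named 15897 of 15935 identifiers, and 38 did not match.

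Folds are log2 of FPKM + 1 over FPKM + 1, ratios of FPKM carry exact 95% Clopper-Pearson intervals from rounded counts, and no statistical test was possible with single libraries. The members and gene lists were chosen with earlier results of these data known. Genes named are the 25 highest and 25 lowest folds, per list up to 4 highest, 4 lowest and the 2 most abundant, and a fixed set. Other names, such as Rela, Nfkb1, Il23a, Csf1, Ifih1, Oas2 and Ncf1, were taken from the same lists, from runs of neighbours or from the noncoding genes after their values were seen. Promoters were searched for 5760 genes with 1 listed start, while 1498 had several and 1695 no entry. Alternatives were other pseudocounts, count limits, scalings and size rules. The computations were tested on simulated counts. Python 3.11.15, pandas 2.3.3, NumPy 2.4.6, SciPy 1.17.1 and matplotlib 3.10.9 were used.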

Additional observations from a re-analysis of the deposited data

Results flagged for a closer look

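Gm6644, a transcribed pseudogene on chromosome 1 with fractional counts, was past 2-fold in opposite directions in the genotypes. Its log2 fold with LPS was -1.55 in WT (9.61 to 2.62 FPKM) and 1.17 in KO (2.77 to 7.49 FPKM). The difference was not tested, and a fractional count means that reads were split with other genes.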

How the results depend on the processing

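The counts of 578 higher and 1486 lower genes, of which 514 and 987 were also called in KO, depended on the settings mainly on the lower side. Lower genes and those also lower in KO numbered 421 and 291 with a pseudocount of 5 FPKM, 655 and 468 with at least 200 expected counts, 713 and 464 with median-ratio scaling, 3607 and 2737 at 1.5-fold, and 348 and 198 at 3-fold. At 3-fold, 371 were higher and 338 of them also in KO. Where the counting interval had to lie beyond 2-fold, 620 lower genes were also lower in KO. All other settings kept these counts within 1.5 times, with 462 to 828 higher genes over every setting but 3-fold. Of 534 list medians under other settings 109 moved beyond the lists' typical counting interval, and of 4487 values of 577 named genes 611 did. Depth limits low genes: a ratio that rests on 1 count, as for Il6, has an interval of 139 to 30710. No paired analysis was possible because each group has 1 library.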
